A study of Mus musculus with 4 samples.

Results

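Heat shock proteins and their cochaperones were followed in the blood of naringenin-treated mice. The set held 10 named genes, taken by gene symbol, and all 10 had values among the 17823 genes with values in the 23136 listed. Of these, 4 were stress-induced (Hspa1a, Hspa1b, Dnajb1 and Hsph1), and 6 were treated as constitutive (Hspa8, Hspa5, Hsp90aa1, Hsp90ab1, Hspe1 and Hsf1). The study asked what the flavonoid naringenin (Nar) changes in the blood of aging mice. All animals were C57BL/6 mice, which the labels call adult and the study describes as aging. By the labels, one group received naringenin and the control group (Ctrl) received PBS, each for 30 days. Injection was through the tail vein. Messenger RNA from blood was sequenced in 2 libraries per group, Ctrl 1 and Ctrl 3 against Nar 1 and Nar 3, and pairs of values below follow that order. The labels do not say whether a library is 1 mouse or a pool, so the p-values measure only the spread between these libraries.

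Heat shock proteins are chaperones, which bind unfolded or newly made proteins and keep them from aggregating. HSP70 proteins work in an ATP-driven cycle that J-domain proteins such as DNAJB1 start and nucleotide exchange factors such as HSP110 reset, and HSP90 then acts on proteins that are partly folded. In unstressed cells the transcription factor HSF1 is held inactive by chaperones. Unfolded protein releases it, and it then binds heat shock elements (HSEs), which are inverted repeats of a GAA unit, in the promoters of the inducible genes. Blood messenger RNA is a mixture from reticulocytes, platelets and white cells, all of which hold chaperones.

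Promoter sites are shown for members of both groups, to set the known stress elements beside the grouping, which was given by gene name. Promoter entries, from RefSeq on GRCm38.p6, were found for 6 of the 10 genes. Entries for Hspa8, Hsp90aa1, Hsp90ab1 and Hsf1 were not used here. The 250 bases before each RefSeq start site were searched on both strands. The windows of Hsph1, Hspa5 and Hspe1, and the more downstream window of Dnajb1, overlap exons annotated in GENCODE M21. The Hspa5 and Hsph1 matches lie inside those genes as annotated there, so not all matches are upstream of every annotated start. Capitals mark the match to GAANNTTC or TTCNNGAA (an HSE of 2 units) or, in Hspe1, to GAANNTTCNNGAA or TTCNNGAANNTTC (an HSE of 3 units, which also holds the shorter match). In Hspa5 they mark CCAAT and CCACG 9 bases apart, the ER stress element (ERSE).
Hspa1a, chr17:34972242-34972271, minus strand: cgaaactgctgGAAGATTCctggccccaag
Hspa1b, chr17:34959324-34959353, minus strand: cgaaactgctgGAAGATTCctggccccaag
Hsph1, chr5:149636351-149636380, minus strand: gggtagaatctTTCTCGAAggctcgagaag
Hspe1, chr1:55088050-55088079, plus strand: cacggtccgTTCTAGAACCTTCcggaaggc
Hspe1, chr1:55088055-55088084, plus strand: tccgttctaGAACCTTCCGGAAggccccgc
Hspa5, chr2:34772019-34772048, plus strand: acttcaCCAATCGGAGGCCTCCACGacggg

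An HSE of 2 units is common, present in 12.8% of 32851 promoters of this length. An HSE of 3 units was in 0.466% of them and the ERSE in 0.113%. Both Hspe1 matches are overlapping readings of 1 run of units. The matches did not follow the grouping. No match stood in the window of the stress-induced Dnajb1, and the 3-unit HSE was in Hspe1, grouped as constitutive. The sites of Hspa1a and Hspa1b, the inducible HSP70 genes, have the same letters, 104 to 97 bases before the start. Hspa1a is shown over its whole window, chr17:34972157-34972406 on the minus strand, because it differs from that of Hspa1b at only 3 of 250 bases, with the match in capitals.
Hspa1a: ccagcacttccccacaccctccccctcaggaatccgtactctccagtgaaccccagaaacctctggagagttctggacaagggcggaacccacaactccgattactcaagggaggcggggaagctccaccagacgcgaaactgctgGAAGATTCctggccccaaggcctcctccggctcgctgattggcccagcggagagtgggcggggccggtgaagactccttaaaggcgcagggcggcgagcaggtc

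The libraries differed in more than the chaperones. Haemoglobin genes took 92.6% to 96.4% of the summed FPKM (fragments per kilobase of transcript, relative to the mapped fragments of the library), which fits blood. The read depth is unknown. All 11 tested neutrophil marker genes had a limma adjusted p under 0.05 and were lower with Nar, with summed FPKM of 1436 to 1737 in Ctrl and 105 to 164 in Nar. The limma test called 39.6% of all tested genes lower. After median-of-ratios scaling 5 of the 11 passed, without Ctrl 1 or without Ctrl 3 0 did, without Nar 1 5 and without Nar 3 9, and in each of these fits all 11 were lower at an unadjusted p under 0.05. Of the other markers, 3 of 5 tested for monocytes were lower, and 0 of 5 for B cells, 0 of 5 for T cells and 0 of 6 for platelets passed in limma, with 0, 1 and 1 at an unadjusted p under 0.05. Without Ctrl 1, 5 of the 6 platelet markers were lower at that unadjusted level. The 3 monocyte calls were 2 after median-of-ratios scaling, 0 without Ctrl 1 or without Ctrl 3, and 1 without Nar 3. Erythroid markers had a median log2 fold change of 0.37, but 0 of 10 passed in limma (0 also at an unadjusted p under 0.05), and both Nar libraries lay above both Ctrl libraries for 3 of them. Scaled by the median of ratios, the erythroid genes had a median of 1.54, with 9 of 10 higher at an unadjusted p under 0.05 and 0 called. With haemoglobin genes removed 7 were higher at that level and 1 was called. Of 9 haemoglobin genes tested 2 were called higher, 4 after median-of-ratios scaling, 0 without Ctrl 1, Ctrl 3 or Nar 3, and 1 without Nar 1. Platelet markers stood highest in Ctrl 3, at 2049 summed FPKM against 413 to 627 in the other libraries. The part of these markers in the chaperone values was not tested. In whole blood, fewer cells of a type and less RNA per cell cannot be told apart.

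All 10 heat shock genes had a lower mean log2(FPKM + 0.1) in Nar, as did 5001 of the 5339 tested genes. Hspa1a and Hspa1b among the 10 were at or near 0 FPKM. The count did not hold after median-of-ratios scaling, when Hsp90aa1, Hsp90ab1, Hspe1, Hsf1 and Hspa1b were positive. That scaling centres the genes, and 2666 of the 5339 tested genes were positive after it. On the deposited FPKM the median log2 fold change of the 7 members with a mean FPKM of at least 0.5, which could be tested, was -0.99. It was -1.07 over all 5339 genes tested. With limma on these values and Benjamini-Hochberg adjustment over all of them, Dnajb1 and Hspa5 fell and 0 of 7 rose. At an unadjusted p under 0.05, 3 of 7 were lower and 0 were higher. The same test called 39.6% of all tested genes lower and 0.187% higher. Both Nar libraries lay below both Ctrl libraries for 6 of the 7 tested members, and for 78.3% of all tested genes. For any 1 value in this design of 2 and 2 libraries, the smallest two-sided p of an exact permutation test is 0.33. Median-of-ratios scaling, which evens out the typical gene between libraries, brought the median over all genes tested to -0.0016 and that of the 7 members to -0.022. On those scaled values 0 of 7 members passed limma (0 also at an unadjusted p under 0.05), against 0.599% of genes called lower and 0.187% called higher.

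**Figure D1:**
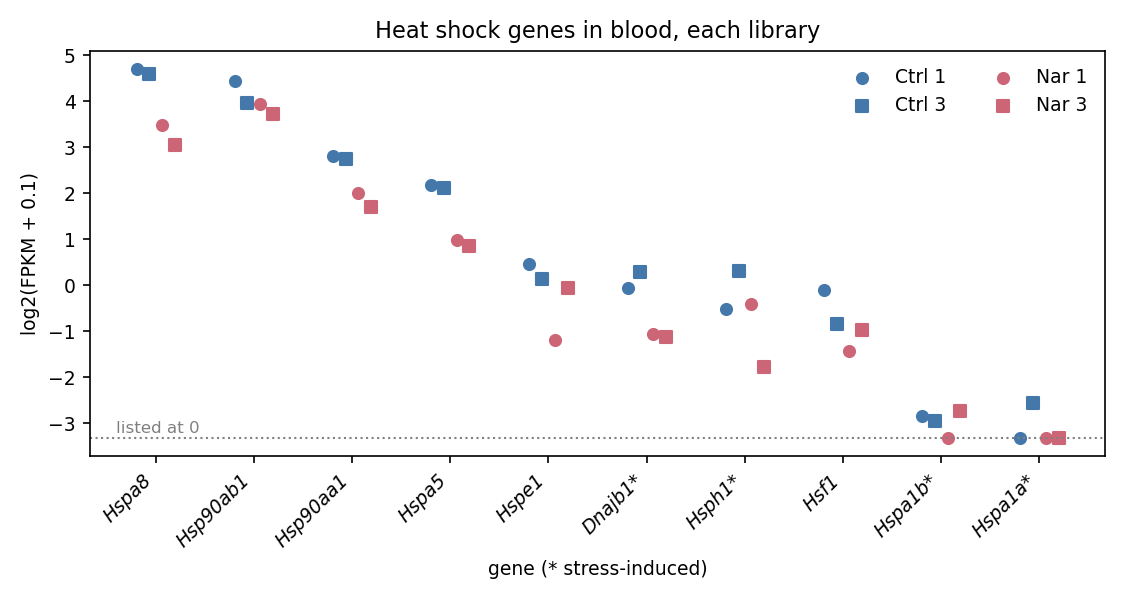
Level of each of the 10 genes as log2(FPKM + 0.1) in each of the 4 libraries. Blue marks Ctrl, red marks Nar, circles are replicate 1 and squares replicate 3, and the dotted line is a gene listed at 0. Hspa8 and Hsp90ab1 lie highest, and Hspa1a and Hspa1b lie at or near the dotted line in every library.

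The members spanned a wide range of levels, which FPKM allows to be compared because it is per length. Reads that fit more than 1 gene may limit this. Of the 50-base windows of the transcript, 73.2% occur in another gene for Hspa8 and 58.5% for Hsp90aa1. The share was 36.1% for Hspe1 and 4.49% for Hsp90ab1. In both Ctrl libraries the order began with Hspa8, Hsp90ab1, Hsp90aa1 and Hspa5, and no neighbours among these 4 overlapped. In Ctrl the means of Hspe1, Dnajb1, Hsph1 and Hsf1 followed, each neighbour overlapping the next. In both Nar libraries Hsp90ab1 stood above Hspa8, and the rest of the order from Hsp90aa1 down to Hspa5 was as in Ctrl. Hspa8 lay at percentile 96.8 to 98.0 of the genes with values and Hsp90ab1 at percentile 96.1 to 97.8.

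The classical inducible HSP70 genes were hardly detected. Hspa1a (gene ID 193740) was listed at 0 and 0.07 in Ctrl and 0 and 0 in Nar. Hspa1b (15511) was listed at 0.04 and 0.03 in Ctrl and 0 and 0.05 in Nar. The groups overlapped for both genes, neither entered the test, and values this near the rounding step of 2 decimals allow no fold. Both are single-exon genes on the minus strand of chromosome 17 in GRCm38 with GENCODE M21, Hspa1b at chr17:34956436-34959238 and Hspa1a at chr17:34969190-34972156, with 9951 bases between them. Of all 50-base windows of the Hspa1a transcript, 60.4% also occur in another gene, mostly Hspa1b. The split of reads between them is therefore uncertain.

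Dnajb1 (81489, chr8:83608193-83612653, plus strand), the inducible J-domain partner of HSP70, fell with Nar. Its FPKM was 0.86 and 1.12 in Ctrl and 0.38 and 0.36 in Nar. Both Nar libraries were below both Ctrl libraries and close to each other. The mean was 0.99 ± 0.184 in Ctrl and 0.37 ± 0.0141 in Nar (SD, n = 2 each), 2.68 times lower. On log2(FPKM + 0.1), the scale of every log2 fold change here and one that understates the change of low genes, its log2 fold change was -1.20 (SE 0.373, limma adjusted p = 0.0356). Its log2 fold change minus the median of all tested genes was -0.13. Once scaled by the median of ratios, the log2 fold change of Dnajb1 was -0.20, with a limma adjusted p of 0.941. The call was lost when Ctrl 1, Ctrl 3, Nar 1 or Nar 3 was left out, each in turn, while the log2 fold change was -1.38 to -1.03.

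Hsph1 (15505, chr5:149614287-149636376, minus strand) encodes HSP110, a nucleotide exchange factor of HSP70. Its FPKM was 0.6 and 1.14 in Ctrl and 0.66 and 0.19 in Nar. Nar 1 lay above Ctrl 1, so the groups overlapped. The log2 fold change was -0.99, with an SE of 0.534, a 95% interval of -2.20 to 0.22 and a limma adjusted p of 0.140. It was -1.68 without Nar 1, -0.29 without Nar 3 and -0.58 without Ctrl 3. The interval allows no change as well as a drop past the median of all genes.

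Hspa8 (15481, chr9:40800984-40810087, plus strand) encodes HSC70, the constitutive cytosolic HSP70, and was the highest member in Ctrl. Its FPKM was 25.93 and 24.04 in Ctrl and 11.06 and 8.14 in Nar. Nar libraries lay well below both Ctrl libraries, with means of 25.0 ± 1.34 and 9.60 ± 2.06 (SD, n = 2 each). The log2 fold change of -1.39 (SE 0.492) was the lowest of the 7 tested members, yet its limma adjusted p of 0.0502 missed the threshold of 0.05. It passed when the values were rescaled to TPM (limma adjusted p = 0.0475) and without the mean-dependent trend (0.0353). With haemoglobin genes removed the log2 fold change was -0.83 (limma adjusted p = 0.239), and scaling by the median of ratios gave -0.22 (0.941). Leaving out 1 library at a time gave limma adjusted p values of 0.0945 to 0.362. Of all tested genes, 25.8% had a lower log2 fold change. Of the 50-base windows of its transcript, 73.2% occur in another annotated gene, mainly the pseudogene Gm15459. No symbol sharing windows with Hspa8 is listed in the deposited table.

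Hspa5 (14828, chr2:34771970-34777547, plus strand) encodes BiP, the HSP70 of the endoplasmic reticulum (ER) and a target of the unfolded protein response. It fell with Nar. The FPKM was 4.45 and 4.27 in Ctrl and 1.88 and 1.71 in Nar. Group means were 4.36 ± 0.127 in Ctrl and 1.80 ± 0.120 in Nar (SD, n = 2 each), 2.43 times lower, and the groups lay far apart. The log2 fold change was -1.24 (SE 0.393, limma adjusted p = 0.0382), and 36.1% of tested genes had a lower one. Leaving out any of Ctrl 1, Ctrl 3, Nar 1 and Nar 3 ended the call, while the log2 fold change was -1.30 to -1.17. Scaled by the median of ratios, its log2 fold change was -0.10, with a limma adjusted p of 0.978. None of its 50-base windows occurs in another gene.

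Neither cytosolic HSP90 gene passed the test. Hsp90aa1 (15519, chr12:110690605-110702728, minus strand), the more inducible HSP90, had an FPKM of 6.93 and 6.59 in Ctrl and 3.93 and 3.15 in Nar. Both Nar libraries were lower, but the log2 fold change of -0.92 (SE 0.435, limma adjusted p = 0.103) did not pass, with a 95% interval of -1.91 to 0.06. Of its 50-base windows, 58.5% occur in another annotated gene.

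Hsp90ab1 (15516, chr17:45567775-45573271, minus strand), the constitutive HSP90, had an FPKM of 21.82 and 15.45 in Ctrl and 15.39 and 13.15 in Nar. Ctrl 3 and Nar 1 were nearly equal, and the log2 fold change was -0.37 (SE 0.498, limma adjusted p = 0.528, 95% interval -1.49 to 0.76). With a library left out it was -0.61 to -0.12. This was the smallest difference of the 7, and 87.8% of tested genes had a lower log2 fold change. After median-of-ratios scaling the sign turned, with scaled FPKM of 15.5 and 9.61 in Ctrl and 20.8 and 21.9 in Nar. The scaled log2 fold change was 0.80 (95% interval -0.20 to 1.80, limma adjusted p = 0.498), so it did not pass in that direction either. Hsp90aa1 also turned, to 0.23, and neither gene can be given a direction that holds under both scalings.

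Hspe1 (15528, chr1:55088132-55091307, plus strand) encodes HSP10, the mitochondrial cochaperonin of HSP60. Its FPKM was 1.28 and 1.0 in Ctrl and 0.34 and 0.86 in Nar. The Nar libraries were below both Ctrl libraries but far from each other. The log2 fold change was -0.92 (SE 0.438, 95% interval -1.91 to 0.07, limma adjusted p = 0.104), and after median-of-ratios scaling it was 0.12. It was -0.36 without Nar 1 and -1.49 without Nar 3. Hspe1 overlaps its partner gene Hspd1, on the opposite strand, by 112 bases.

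Hsf1 (15499, chr15:76477422-76501913, plus strand), the factor that drives the inducible genes, had an FPKM of 0.83 and 0.46 in Ctrl and 0.27 and 0.41 in Nar. Both Nar libraries were lower, though Nar 3 lay close to Ctrl 3. Its mean over all libraries was 0.492, just under the minimum of 0.5, so it was not tested. Its difference on the log2 scale was -0.73, and -1.10 to -0.37 with a library left out, lowest without Ctrl 3 and highest without Ctrl 1. After median-of-ratios scaling it was 0.23 and the groups overlapped.

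**Figure D2:**
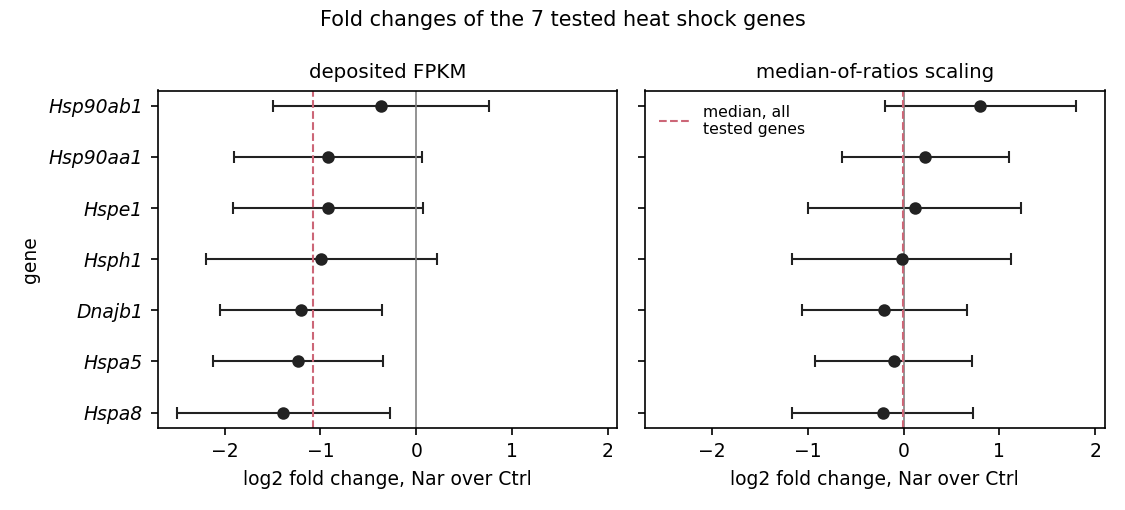
Log2 fold change of Nar over Ctrl on log2(FPKM + 0.1) for the 7 tested genes, with 95% limma intervals, from the deposited FPKM (left) and after median-of-ratios scaling (right). The dashed line is the median of all tested genes, at -1.07 and -0.0016. All 7 points are below 0 on the left, and every interval on the right spans 0.

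The stress-induced and the constitutive members were then compared within each library, which removes, apart from the pseudocount, any scaling shared by all genes. The mean log2(FPKM + 0.1) of the 4 stress-induced genes minus that of the 6 constitutive genes was -4.10 and -3.35 in Ctrl and -3.33 and -3.62 in Nar. Nar 1 and Ctrl 3 were nearly level, and the groups overlapped. The mean difference was -3.72 ± 0.535 in Ctrl and -3.48 ± 0.210 in Nar (SD, n = 2 each), so Nar minus Ctrl was 0.25, less than the spread between the Ctrl libraries. Without Ctrl 1 it was -0.13, and with a pseudocount of 0.01 it was -0.25. With only the tested members, 2 stress-induced and 5 constitutive, it was also -0.13, with values of -3.21 and -2.41 in Ctrl and -2.58 and -3.31 in Nar. The sign of this difference thus depended on the genes, the libraries and the pseudocount. It was also negative with haemoglobin genes removed (-0.47) and with the libraries scaled by the median of ratios (-0.26). Both settings rescale whole libraries, so they can move this difference only through the pseudocount. In summed FPKM the stress-induced genes came to 1.5, 2.36, 1.04 and 0.60 in Ctrl 1, Ctrl 3, Nar 1 and Nar 3, and the constitutive ones to 61.2, 51.8, 32.9 and 27.4. Among tested members 1 of 2 stress-induced genes fell, with a median log2 fold change of -1.10, and 1 of 5 constitutive genes, with a median of -0.92. Over all tested genes 39.6% were called lower and the median was -1.07, and after median-of-ratios scaling limma called 0 of the 2 and 0 of the 5.

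Ratios between members were examined in the same way, and Hsp90ab1 was singled out after its values were seen. The ratio of Hsp90ab1 to Hspa8 was 0.841 and 0.643 in Ctrl and 1.39 and 1.62 in Nar. It was above 1 in both Nar libraries and below 1 in both Ctrl libraries, with an exact permutation p of 0.33 (two-sided), the smallest the design allows. The ratio of Hsp90ab1 to Hspa5 was 4.90 and 3.62 in Ctrl and 8.19 and 7.69 in Nar. Its ratio to Hsp90aa1 was 3.15, 2.34, 3.92 and 4.17 in the same order. The groups lay apart for 4 of the 6 pairs of tested members with Hsp90ab1, and for 7 of 21 pairs in all. With no difference between groups, a ratio would lie apart with a chance of 0.33. The count of 7 of 21 is not above that share, and the pairs share genes. A lower ratio to Hsp90ab1 in both Nar than in both Ctrl libraries was also found for 58.6% of 5297 tested genes, so the ratios to chaperones were in the same direction as those to most genes. By contrast, the ratio of Hspa8 to Hspa5 overlapped between groups, at 5.83 and 5.63 in Ctrl and 5.88 and 4.76 in Nar.

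**Figure D3:**
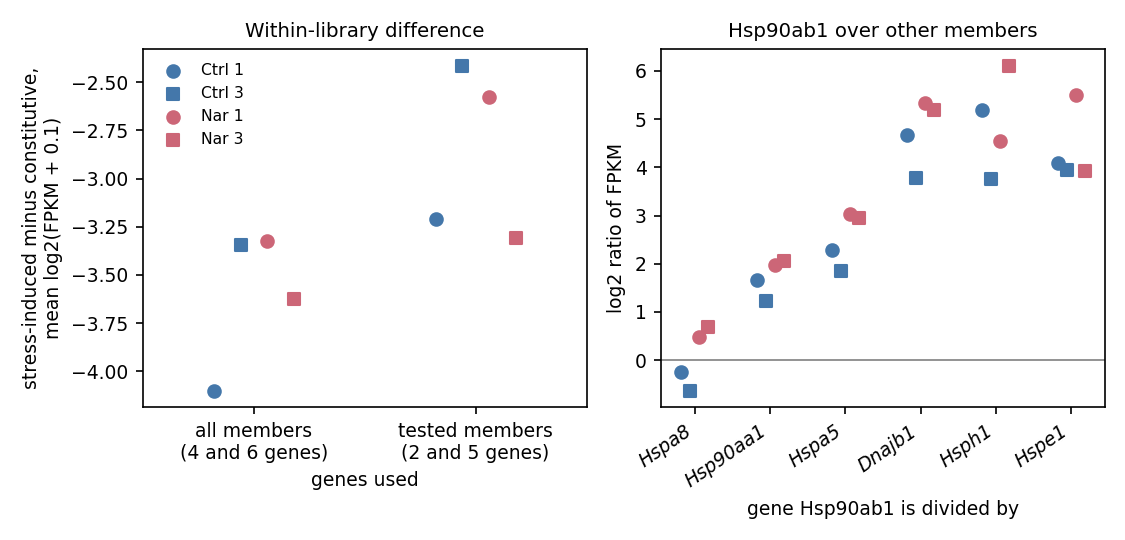
Left, the mean log2(FPKM + 0.1) of stress-induced minus constitutive genes in each library, for all members and for tested members only. Right, log2 ratio of the FPKM of Hsp90ab1 to that of the 6 other tested members, with colours and shapes for the libraries. The groups overlap on the left, and on the right they lie apart for 4 of the 6 genes, with Hsph1 and Hspe1 overlapping.

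The wider chaperone list gave calls in 1 direction on the deposited FPKM and none after scaling. Of 90 further genes listed in 9 role groups, 87 had values and 50 could be tested. Of these 50, 11 fell by limma (adjusted p under 0.05 over all 5339 genes) and 0 rose, against 39.6% and 0.187% of all tested genes. At an unadjusted p under 0.05, 27 of the 50 were lower and 0 higher, against 3019 and 17 of 5339. Leaving out any of Ctrl 1, Ctrl 3, Nar 1 and Nar 3 left 0 of the 50 called, with 4 to 19 of them at an unadjusted p under 0.05. Their median log2 fold change was -0.91, and 46 of 50 were negative, where the median over all tested genes was -1.07 and 5001 of 5339 were negative. After median-of-ratios scaling 0 passed in limma, with 5 higher and 0 lower at an unadjusted p under 0.05, the median was 0.17 and 34 were positive. The 8 small heat shock proteins listed held 6 with values, none high enough to test, and the highest single value was 0.30 FPKM.

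Cytosolic partners of HSP70 gave mixed values. Hspa4, another HSP110 exchange factor, fell from 1.08 and 1.12 FPKM in Ctrl to 0.51 and 0.43 in Nar (log2 fold change -1.08, limma adjusted p = 0.0406). Its relative Hspa4l was at 0.69 and 1.43 in Ctrl and 1.14 and 0.46 in Nar, so the groups overlapped, with a log2 fold change of -0.40 (limma adjusted p = 0.481) that was 0.17 without Nar 3 and 0.077 without Ctrl 3. Among the HSP70 cochaperones, 0 of 5 tested passed in limma, with 2 at an unadjusted p under 0.05, against 39.6% of all tested genes called lower and 3019 of 5339 lower at that unadjusted level. Bag3, an exchange factor that is itself heat-inducible, had a log2 fold change of -1.18 (limma adjusted p = 0.0805), which was -1.82 without Ctrl 1 and -0.53 without Ctrl 3. St13, which steadies the bound state of HSP70, had one of -0.64 (limma adjusted p = 0.152), and -0.93 without Nar 1 to -0.35 without Nar 3.

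Of 14 J-domain proteins tested 6 fell, a share near the 39.6% of all tested genes, and after median-of-ratios scaling limma called 0 and 8 of the 14 were positive. The 6 called lower on the deposited FPKM were Dnaja2, Dnajb9, Dnajb11, Dnajb12, Dnajc5 and Dnajc10. Dnajc10, an ER-resident reductase and partner of BiP, was lowest at a log2 fold change of -1.44 (limma adjusted p = 0.0399), with 1.08 and 0.60 FPKM in Ctrl and 0.30 and 0.18 in Nar. Dnaja4 was the highest, with 6.13 and 2.71 in Ctrl and 7.61 and 4.61 in Nar, and its log2 fold change of 0.53 did not pass (limma adjusted p = 0.399). It was 1 of 4 genes in the wider list with a positive log2 fold change, with Dnajb2, Dnajb6 and Pdia4, and the groups overlapped for all 4. Without Ctrl 3 the log2 fold change of Dnaja4 was -0.048.

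In the ER group 3 of 10 tested genes fell, namely Xbp1, Atf6 and Pdia3, against 39.6% of all tested genes. Xbp1, a transcription factor of the unfolded protein response, had the lowest log2 fold change of the wider list. Its FPKM was 3.56 and 4.02 in Ctrl and 1.27 and 0.76 in Nar, a log2 fold change of -1.84 (limma adjusted p = 0.0157). Pdia4, a protein disulfide isomerase, had the highest of the group at 0.48 (limma adjusted p = 0.339), with overlapping groups, and -0.062 without Ctrl 3.

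HSP90 and its cochaperones gave 1 call. Hsp90b1, the ER paralog of HSP90, had 4.40 and 2.82 FPKM in Ctrl against 2.17 and 1.06 in Nar, a log2 fold change of -1.16 that did not pass (limma adjusted p = 0.0694). With a library left out it was -1.64 to -0.68, highest without Nar 3. Of 7 HSP90 cochaperones tested 1, Ptges3 (p23), passed at the adjusted threshold, against 39.6% of all tested genes. At an unadjusted p under 0.05 3 of the 7 were lower (3019 of 5339 over all tested genes), and for all 7 both Nar libraries lay below both Ctrl libraries, as for 78.3% of all tested genes. Cdc37, which brings kinases to HSP90, had a log2 fold change of -1.14 (limma adjusted p = 0.0667), and -1.56 without Nar 1 to -0.72 without Nar 3. Stip1, which links HSP70 to HSP90, had one of -0.49 (limma adjusted p = 0.301), and -0.90 without Nar 1 to -0.078 without Nar 3. Hsbp1, the HSF1-binding protein, had one of -1.31 (limma adjusted p = 0.0733), with Ctrl 3 at 19.6 FPKM, Ctrl 1 at 8.46 and the Nar libraries at 5.16 and 5.13, and it was -1.91 without Ctrl 1 and -0.71 without Ctrl 3.

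Chaperonins, the ring-shaped folding machines, had 0 of 9 tested genes past the threshold by limma, with 5 at an unadjusted p under 0.05, and all 9 log2 fold changes were negative, with a median of -0.82. Over all tested genes 39.6% were called lower, 3019 of 5339 were lower at that unadjusted level, 5001 were negative and the median was -1.07. Cct5, a subunit of the cytosolic ring, had 3.46 and 2.70 FPKM in Ctrl and 1.40 and 1.48 in Nar (log2 fold change -1.04, limma adjusted p = 0.0545). Cct7, another subunit, had 4.32 and 9.81 in Ctrl and 5.67 and 5.60 in Nar, with a log2 fold change of -0.21 (limma adjusted p = 0.732) that was 0.38 without Ctrl 3 and -0.79 without Ctrl 1. After median-of-ratios scaling all 9 were positive, with a median of 0.27, and none passed.

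**Figure D4:**
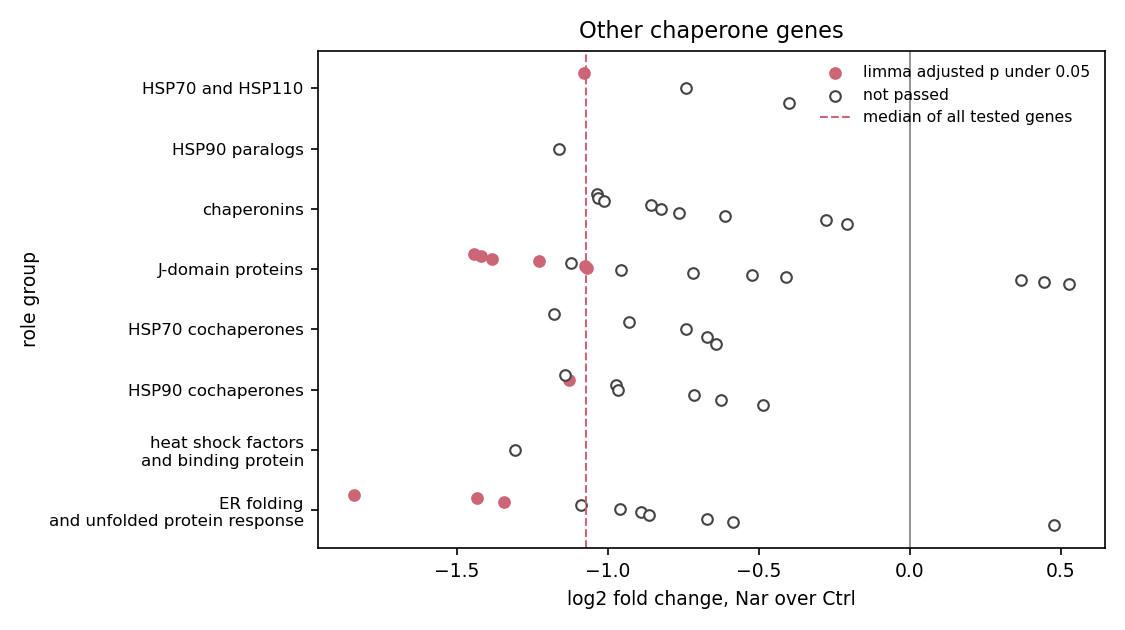
Log2 fold change of Nar over Ctrl on log2(FPKM + 0.1) for the 50 tested chaperone genes outside the 10 members, by role group. Filled points have a limma adjusted p under 0.05, the dashed line is the median of all tested genes (-1.07), and small heat shock proteins are missing because 0 could be tested. The 11 filled points lie between -1.84 and -1.07, and 4 open points lie above 0.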

How the data were processed

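Blood RNA-seq libraries, 2 Ctrl and 2 Nar, were grouped by sample labels. FPKM values, given to 2 decimals for each gene, are as the authors deposited them. The paper's methods name bowtie-2, and the submitters' processing notes name TopHat2, Cufflinks and GRCm38, with no order or version. Reads near identical gene copies may thus have been split differently. Each column was matched to 1 library, with 0 left over. Read depth is unknown, and counting error cannot be given.

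Values were compared on log2(FPKM + 0.1) where the mean FPKM was 0.5 or more, with limma 3.58.1 in R 4.3.3 (mean-dependent trend, Benjamini-Hochberg adjustment over 5339 genes, threshold 0.05), since DEGseq needs read numbers. Other tools were Python 3.11.15, pandas 2.3.3 and matplotlib 3.10.9. Members and lists were chosen with earlier results of these data known. Named genes were the 10 members and, per role group, the tested genes with the lowest and highest log2 fold change. Others named were chosen after their values were seen. Alternatives covered pseudocounts, filters, TPM, haemoglobin removal, median-of-ratios scaling, no trend, replicate blocks and each library left out. Windows of 50 bases were matched between GENCODE M21 transcripts. Promoters came from RefSeq.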

Additional observations from a re-analysis of the deposited data

How the results depend on the processing

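The number of chaperone genes that passed depended on the settings. Among members, 2 passed with a pseudocount of 1 or 0.01, and 3 after rescaling to TPM or without the limma trend. It was 0 in limma with no filter, with a mean FPKM of at least 5, with haemoglobin genes removed and after median-of-ratios scaling, with 4, 1, 0 and 0 at an unadjusted p under 0.05. Other chaperone genes gave 0 calls under these same 4 settings, with 25, 1, 4 and 5 unadjusted, and 7 without the trend, against 11. All tested genes gave 0 (4978 unadjusted), 117, 256 and 42 calls, against 2123. Leaving out each library gave 0 member calls (1 to 3 unadjusted), 0 calls among other chaperone genes and 0 to 259 among all genes, where the lone library is assumed to vary like the others.

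The members' median log2 fold change was -0.54 with a pseudocount of 1, -1.19 with 0.01, -0.65 with haemoglobin genes removed, -0.022 after median-of-ratios scaling, and -1.23 to -1.03 with a library left out. The stress-induced minus constitutive difference (0.25) was -0.25 with a pseudocount of 0.01, -0.47 with haemoglobin genes removed, -0.26 after median-of-ratios scaling, -0.13 with tested members only (added after seeing the data), and -0.13 to 0.63 with a library left out. Haemoglobin removal and median-of-ratios scaling can move this difference only through the pseudocount. A mean FPKM of at least 5 left no stress-induced gene for it.

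Of the 50 other chaperone genes, 34 were positive after median-of-ratios scaling, against 4 before. Among the members, signs turned with it for Hsp90aa1 (0.23), Hsp90ab1 (0.80), Hspe1 (0.12) and the untested Hsf1 (0.23) and Hspa1b (0.13). Among the other chaperone genes given a fold change or a call here, signs turned for Hspa4l (0.64), Dnaja2 (0.021), Cct5 (0.084), Cct7 (0.95), St13 (0.43) and Stip1 (0.53). With haemoglobin genes removed they turned for Hsp90ab1 (0.19), Hspa4l (0.11) and Cct7 (0.35). With a library left out, Hspa4l ranged from -0.97 to 0.17, Cct7 from -0.79 to 0.38, Dnaja4 from -0.048 to 1.10 and Pdia4 from -0.062 to 1.02, turning without Ctrl 3 and, for Hspa4l, also without Nar 3. Hspa1b turned without Nar 1 (0.15), but its values lie too near the rounding step for either turn to give a direction. Both scalings change all genes of a library together. The cause of the other changes was not tested.

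Replicate numbers 1 and 3 recur in both groups, but same-numbered libraries deviated from their group means with a correlation of -0.153 across 5339 genes, so the numbers were not taken as pairs. With the replicate block 1 member passed, Dnajb1 (limma adjusted p = 0.0375), while Hspa5 did not (0.0846), and 9 other chaperone genes and 1815 genes in all passed. When the numbers were crossed, which was added after seeing the data, 4 members, 24 other chaperone genes and 3233 genes in all passed. Low values limit Hspa1a, Hspa1b and the small heat shock proteins.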

Other observations

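Genes whose promoters hold the same motifs as the members were also described. Of the tested genes, 4153 had a RefSeq promoter entry, with a median log2 fold change of -1.08, and limma called 40.6% of them lower with Nar. The 531 with an HSE of 2 units had a median of -1.09 and 39.5% called lower. The 19 with an HSE of 3 units had a median of -1.06, and 7 of them (36.8%) were called lower. The 9 with an ERSE had a median of -1.04, and 3 of them (33.3%) were called lower. Each group is thus near the value of all genes with an entry. A match is a description of letters, not of binding.

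Immediate early genes, which cells switch on within minutes of a stimulus, had a lower median than the heat shock genes. Of 11 tested, 9 were called lower with Nar by limma and 0 higher, with a median log2 fold change of -2.79, and their summed FPKM was 165 and 123 in Ctrl and 36.8 and 36.1 in Nar. The share of all tested genes called lower was 39.6%. After median-of-ratios scaling 1 of the 11 was called and the median was -1.78, and with haemoglobin genes removed 5 were called. Limma called 0 without Ctrl 1 (9 lower at an unadjusted p under 0.05), 0 without Ctrl 3 (10), 3 without Nar 1 and 6 without Nar 3. Neutrophil and monocyte markers moved with them, with median log2 fold changes of -3.77 (11 tested) and -2.08 (5 tested), and -2.60 and -1.02 after median-of-ratios scaling. The part of these cells in the immediate early values was not tested.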
